A study of Mus musculus with 6 samples.

Results

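The genes described here are the olfactory H2B variant gene Hist2h2be, the H2B gene Hist1h2bc and 8 genes of replacement histones (H2afz, H2afv, H2afx, H2afy, H2afj, H3f3a, H3f3b and H1f0), 10 of the 55341 genes counted. They were chosen by name, with their CPM (counts scaled to a library total of 1000000) in these same cells already known, so their levels are a description and carry no test. RNA came from 6 single olfactory sensory neurons, which detect odours in the nasal epithelium, of C57BL/6 mice aged 6 weeks. Each neuron was frozen after a physiological recording and made into 1 CEL-Seq2 library, a method that primes RNA at its poly(A) tail and reads the 3' end. All cells form 1 group with no treatment or genetic change named, and the labels give neither the animals nor the recorded responses. The cells therefore have no replicates, and each value carries its exact 95% counting interval only.

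Histones are the proteins that package DNA into nucleosomes. Canonical histones are made in S phase from clustered genes whose mRNAs end in a stem-loop and carry no poly(A) tail, while replacement histones are made at any time from polyadenylated mRNAs and enter chromatin without DNA replication. Hist2h2be encodes H2BE, a variant enriched in olfactory sensory neurons, which are postmitotic. It is known to accumulate in neurons of low activity, to vary with the receptor a neuron carries, and to be linked to a shorter neuronal lifespan.

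The 6 libraries held 8613 to 122546 counts, in the order of cells 1 to 6 totals of 8613, 34478, 122546, 60902, 22525 and 11725. 1 count thus equals 116 CPM for cell 1 but 8.16 CPM for cell 3, and cells 1 and 6 are the shallow libraries throughout. The receptor gene with the most counts was Olfr740 in cells 1 and 2. Cells 3 and 4 had Olfr741 in that place, while cells 5 and 6 had Olfr743. The labelled cell type had its markers: 7 of 7 markers of mature olfactory neurons (Omp, Stoml3, Gfy and Gng13 the most abundant) were counted in cells 1 to 5 and 6 of 7 in cell 6, with sums of 15893.5 to 30535 CPM. Markers of immature olfactory neurons, led by Stmn2, summed to 581 to 2923 CPM. Of 13 genes of cycling cells, 6 had a count, 16 counts over all cells, and 6 basal cell markers had none. Only 1 of 6 macrophage markers was found (Tyrobp, 7 counts).

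The sequences show where the 2 H2B genes differ and the 3' end signals of polyadenylated and stem-loop histone mRNAs. The first pair is the coding stretch, bases 7 to 66 from the start codon, in which Hist2h2be and Hist1h2bc differ most, with capitals at the bases that differ (14 of 60, and 50 of all 381 coding bases, an identity of 86.9%).
Hist2h2be: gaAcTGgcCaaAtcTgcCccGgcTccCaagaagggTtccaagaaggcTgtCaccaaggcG
Hist1h2bc: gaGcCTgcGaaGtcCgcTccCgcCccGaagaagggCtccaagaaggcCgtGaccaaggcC
The next pair is the last 30 bases of the Hist2h2be and H1f0 transcripts, with the poly(A) signal AATAAA in capitals.
Hist2h2be: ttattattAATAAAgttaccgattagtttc
H1f0: aactttaaAATAAAactggaaaggaaaaaa
The last pair is the histone stem-loop, in capitals, in H2afx and in the canonical gene Hist2h2aa2.
H2afx: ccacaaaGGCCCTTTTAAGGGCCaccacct
Hist2h2aa2: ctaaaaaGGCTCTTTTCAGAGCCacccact
All are written 5' to 3' from the GENCODE M21 transcripts of GRCm38.

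A poly(A) signal (AATAAA or ATTAAA) stood in the last 40 bases of at least 1 annotated transcript of 8 of the 10 genes, against 42.9% of all 55341 genes and 16 of 68 canonical histone genes. The stem-loop, searched on the transcript strand as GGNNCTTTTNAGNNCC, was found in 1 of the 10, H2afx, in 44 of the 68 canonical genes and in 0.161% of all genes. In H2afx the stem-loop begins 838 bases before the end of the transcript and a poly(A) signal 35 bases before it. Among protein-coding transcripts alone, 7 of the 10 genes had the signal there. H2afy had it only in a non-coding transcript, and H3f3b and Hist1h2bc had none in that window, with their nearest signals 44 and 447 bases from an end. H3f3b and H2afy had the most counts of the 10 genes, and H2afv, with a signal 29 bases from its end, had 0.

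Most histone counts in these poly(A)-primed libraries came from the listed genes. Canonical mRNAs without a tail are not primed by this method, and the listed genes were chosen with their CPM known. The share therefore does not describe all histone mRNA of the cells. They had 512 of 672 histone counts (76.2%, exact Clopper-Pearson interval 72.8% to 79.4%), while 68 canonical rows had 141 and 11 other replacement genes 19. H3 counts were almost all from H3f3a and H3f3b, with 261 against 12 from 12 canonical H3 rows. H2B counts came from Hist2h2be and Hist1h2bc, with 101 against 20 from 17 other H2B rows. Histone H4 has no gene among the 10, and its 13 rows had 10 counts in all.

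**Figure D1:**
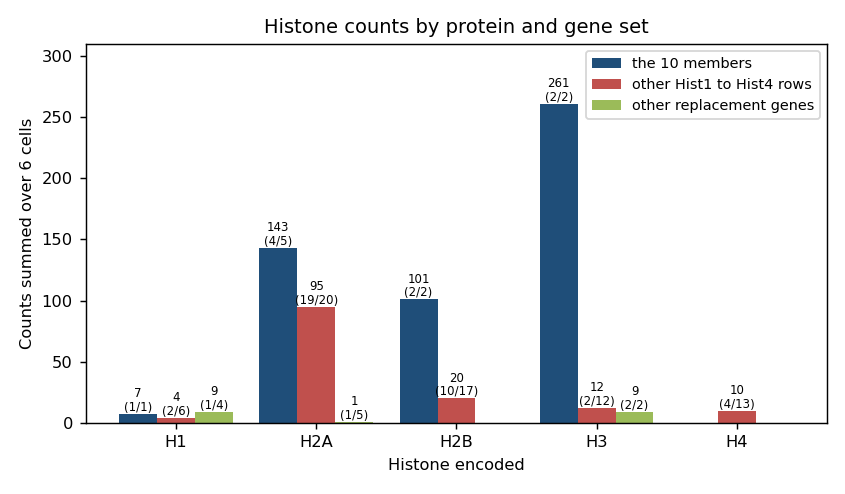
Counts summed over 6 cells (y axis) by histone encoded (x axis) for the 10 listed genes (blue), the other Hist1 to Hist4 rows (red) and other replacement genes (green). Above each bar stand the counts and, in brackets, the rows with a count of all rows. H3 is the tallest blue bar at 261 counts, and H4 has only canonical rows, with 10.

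Canonical rows need care, because many have near-identical relatives and how reads with several alignments were counted is not given. In cell 6, 12 of 14 H2al1 rows, a family related to H2A, had counts while the other cells had 0, and in cell 4, 12 of 15 Hist1h2a rows had exactly 1 count. Of the canonical rows, Hist2h2aa2 had the most counts with 17, followed by Hist2h3c2 with 11, Hist1h2ac and Hist1h2al with 9 each and Hist3h2ba with 8. The 31 canonical rows with a stem-loop and no signal near the end had 75 counts, and the 16 rows with such a signal had 30. Of the listed genes, Hist2h2be, H2afv, H2afx, H2afy, H3f3b and H1f0 had no 50-base window within 1000 bases of a transcript end that also occurs in another gene. H2afz shared 32.5% of them, Hist1h2bc 22.9% (mostly with other Hist1h2b genes), H3f3a 17.9% and H2afj 2.03%, so the counts of these 4 are less certain.

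Hist2h2be was uneven between neurons: abundant in cells 2 and 5, low in cells 3 and 4. The gene has a single exon (GRCm38 chromosome 3, plus strand, 96221119 to 96223738). It had 2, 22, 8, 2, 20 and 0 counts in cells 1 to 6. In cells 1 to 3 these are 232 CPM (95% Poisson interval 28.1 to 839), 638 CPM (400 to 966) and 65.3 CPM (28.2 to 129). Cells 4 and 5 had 32.8 CPM (3.98 to 119) and 888 CPM (542 to 1371). Cell 6 had 0 of 11725 counts, with an upper limit of 315 CPM (256 CPM if set to 3 counts). The intervals of cells 2 and 5 lay wholly above those of cells 3 and 4, although cell 3 was the deepest library. The ratio of cell 5 to cell 4 was 27.0 (6.57 to 239) and that of cell 2 to cell 3 was 9.77 (4.19 to 25.4). Cells 2 and 5 did not differ beyond counting error (ratio 1.39, 0.720 to 2.67), nor did cells 3 and 4 (1.99, 0.397 to 19.2). The level in cell 1 rests on 2 counts and its interval overlaps that of each other cell.

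Neurons with the same leading receptor differed in Hist2h2be beyond counting error in the Olfr743 pair alone, through the 0 of cell 6. Both Olfr741 cells were low. Of the Olfr743 cells, cell 5 was 3.47-fold higher than cell 6, whose level is taken as 3 counts. This ratio leaves out the counting error of cell 5. Their intervals (542 to 1371 CPM and 0 to 315 CPM) did not overlap. Cell 6 also had the fewest genes detected, 2855, against 3058 in cell 1, a library with fewer counts. The intervals cover counting error only, so the difference may lie in the library rather than the neuron, which was not tested. Of the Olfr740 cells, cell 2 stood at 638 CPM and cell 1 at 232 CPM, with a ratio of 2.75 (0.676 to 24.1).

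Hist1h2bc was highest in cell 5, as Hist2h2be was, but had no clear gap between cells 2 and 5 and cells 3 and 4. It lies in the large histone cluster of chromosome 13 (plus strand, 23684199 to 23692908, 2 exons) and encodes a canonical H2B. Its counts in cells 1 to 6 were 1, 2, 25, 13, 6 and 0. Cells 3, 4 and 5 had 204 CPM (132 to 301), 213 CPM (114 to 365) and 266 CPM (97.8 to 580). The upper limit in cell 6 was 315 CPM. No pair of cells with counts had a ratio whose interval lay apart from 1, the largest being cell 5 to cell 2 (4.59, 0.821 to 46.5). With intervals this wide, equal levels are not shown either.

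**Figure D2:**
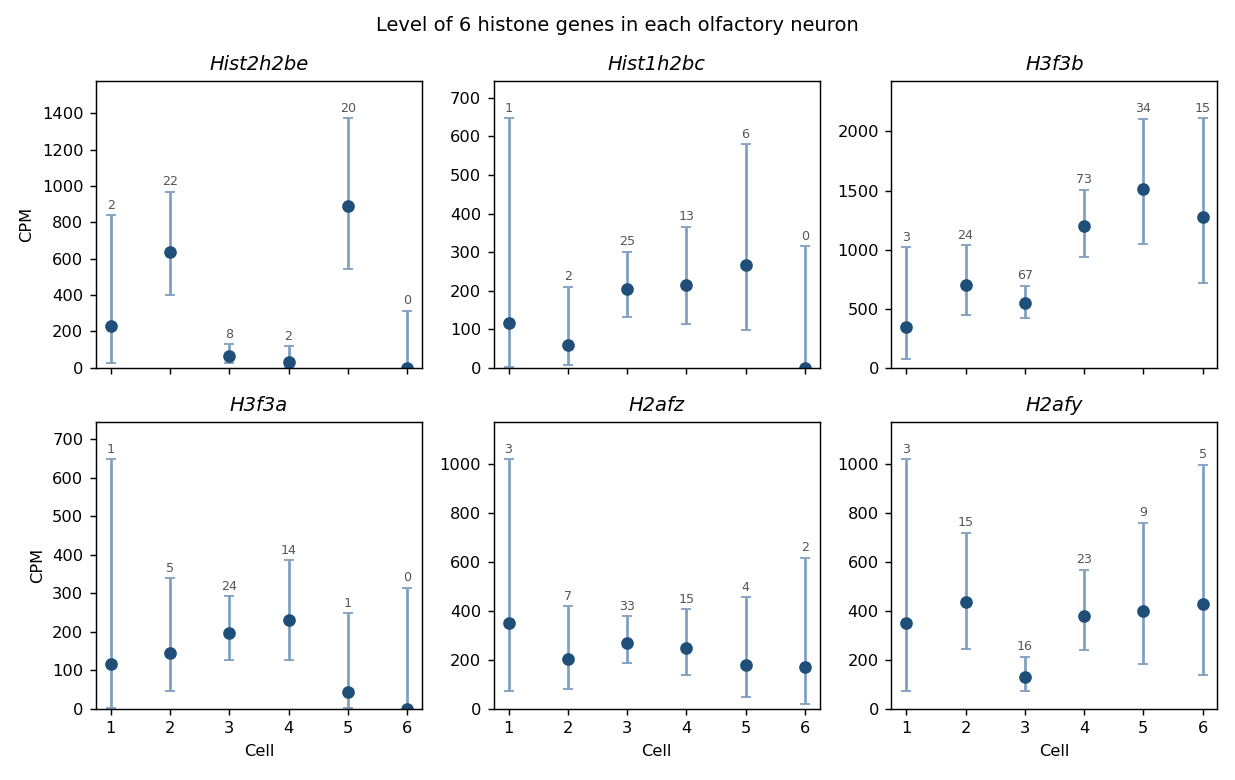
CPM (y axis, linear, a separate scale for each gene) in cells 1 to 6 (x axis) for 6 histone genes. Points are single cells, bars are exact 95% Poisson intervals, and the number above each bar is the count. Hist2h2be is high in cells 2 and 5 (638 and 888 CPM) and low in cells 3 and 4, and H2afy is lowest in cell 3 (131 CPM).

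The make-up of the pool of H2B counts within a cell does not depend on scaling between cells. H2B mRNAs without a poly(A) tail are not covered by it. In cell 2, 22 of 24 H2B counts were from Hist2h2be (91.7%, with an exact Clopper-Pearson lower limit of 73.0%), and cell 5 had 20 of 28 (71.4%, 51.3% to 86.8%). The share was 8 of 43 counts for cell 3 (18.6%, 8.39% to 33.4%) and 2 of 23 for cell 4 (8.70%, 1.07% to 28.0%). The intervals of the first pair of cells lie above those of the second. Cell 1 had 3 H2B counts, 2 of them from Hist2h2be, and cell 6 had none, so their shares say nothing. Hist1h2bc gave 8.33% and 21.4% in cells 2 and 5, against 58.1% and 56.5% in cells 3 and 4. With Hist2h2be and Hist1h2bc alone as the pool, the Hist2h2be shares were 91.7%, 24.2%, 13.3% and 76.9% in cells 2, 3, 4 and 5.

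The total of all H2B rows was 696 CPM (446 to 1036) in cell 2 and 1243 CPM (826 to 1797) in cell 5. In cells 3 and 4 it was 351 CPM (254 to 473) and 378 CPM (239 to 567). The pool was thus larger in cell 5 than in cells 3 and 4, beyond counting error. The interval of cell 2 overlapped both of theirs, but overlap alone does not show equal pools. No ratio of these totals was computed.

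**Figure D3:**
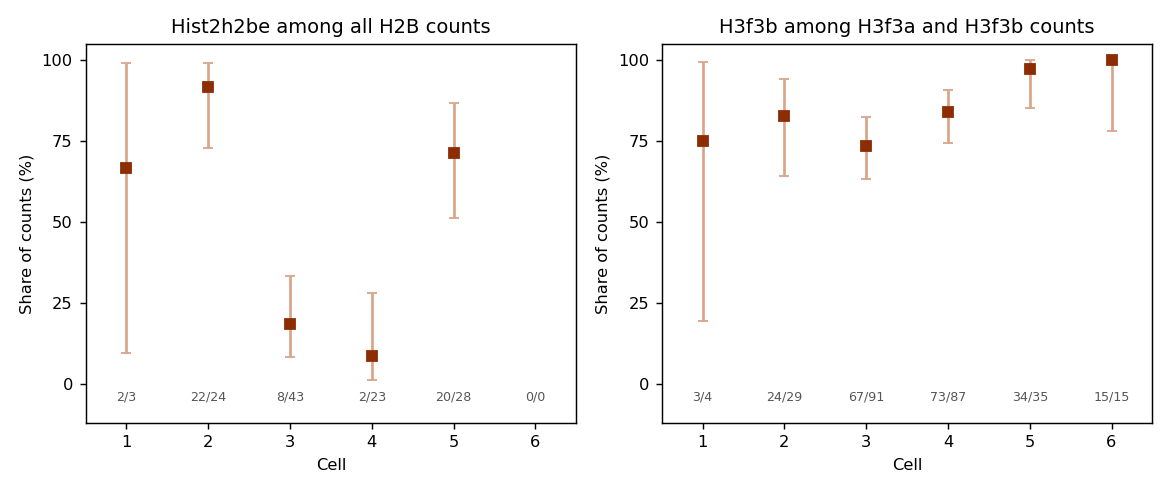
Share of counts in percent (y axis) in cells 1 to 6 (x axis) for Hist2h2be among all H2B rows (left) and H3f3b among H3f3a and H3f3b (right). Squares are single cells, bars are exact 95% Clopper-Pearson intervals, and the numbers along the bottom are counts over total. On the left, cells 2 and 5 (91.7% and 71.4%) lie above cells 3 and 4 (18.6% and 8.70%), and cell 6 has no H2B count.

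Genes linked to neuronal activity and the traces of other cells are set beside Hist2h2be without a test, because the recordings are not in the labels. Kirrel2, a cell adhesion protein of olfactory axons that rises with activity, had 464, 464, 2464, 82.1, 1554 and 682 CPM in cells 1 to 6. The cells did not all go the same way. The cell with the most Hist2h2be, cell 5, was second for Kirrel2, and cell 4, with 2 counts of Hist2h2be, was lowest for Kirrel2. Cell 3, low for Hist2h2be at 65.3 CPM, was highest for Kirrel2 at 2464 CPM. Cell 2, high for Hist2h2be at 638 CPM, had 464 CPM of Kirrel2. S100a5 is a calcium binder whose mRNA is also higher in active neurons. Its level was 8359, 5105, 8291, 4992, 7458 and 9126 CPM, so that cells 2 and 4, at opposite ends for the Hist2h2be share, were the lowest for S100a5. Pcp4l1 and Sema7a, also on the activity list, had medians of 1643 and 334 CPM. Pcp4l1 was highest in cell 3 (4333 CPM), and Sema7a was highest in cell 1 (697 CPM, 6 counts). Of the immediate early genes on that list, named after their values were seen, Fos had 13 counts over 5 cells, Junb 10, Fosb 6, Egr1 5, and Arc and Npas4 0.

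The sum of gland and secretory transcripts, but not each of them, was highest in the cells with the most Hist2h2be. The sum of 6 such markers (Obp1a, Obp2a, Bpifb9a, Bpifb9b, Bpifa1 and Ltf, of which 4, 5, 5, 4, 3 and 0 were counted) was 6850 CPM in cell 1, 19809.7 CPM in cell 2 and 5105 CPM in cell 5, against 1004, 509 and 0 CPM in cells 3, 4 and 6. The 3 cells highest for this sum were the 3 highest for Hist2h2be, although in cell 1 the Hist2h2be level is 2 counts. Bpifb9a, Bpifb9b and Obp1a were each highest in these cells, and Bpifb9a and Bpifb9b had 54 and 57 of the 115 counts in cell 5. Obp2a had 89 counts in cell 2 but 0 in cell 5. Bpifa1 was highest in cell 4 (148 CPM), and Ltf was found in cell 3 alone (4 counts). The part of these transcripts in the Hist2h2be result was not tested. Sustentacular cell markers (Sec14l3, Cyp2g1, Ermn, Muc2 and Cyp1a2, the last at 0 throughout) summed to 870 CPM in cell 2 but to 44.4 CPM, 1 count, in cell 5, below the 73.4 and 312 CPM of cells 3 and 4. Red blood cell markers were highest in cell 4 with 12610 CPM and ran from 171 to 4264 CPM elsewhere.

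**Figure D4:**
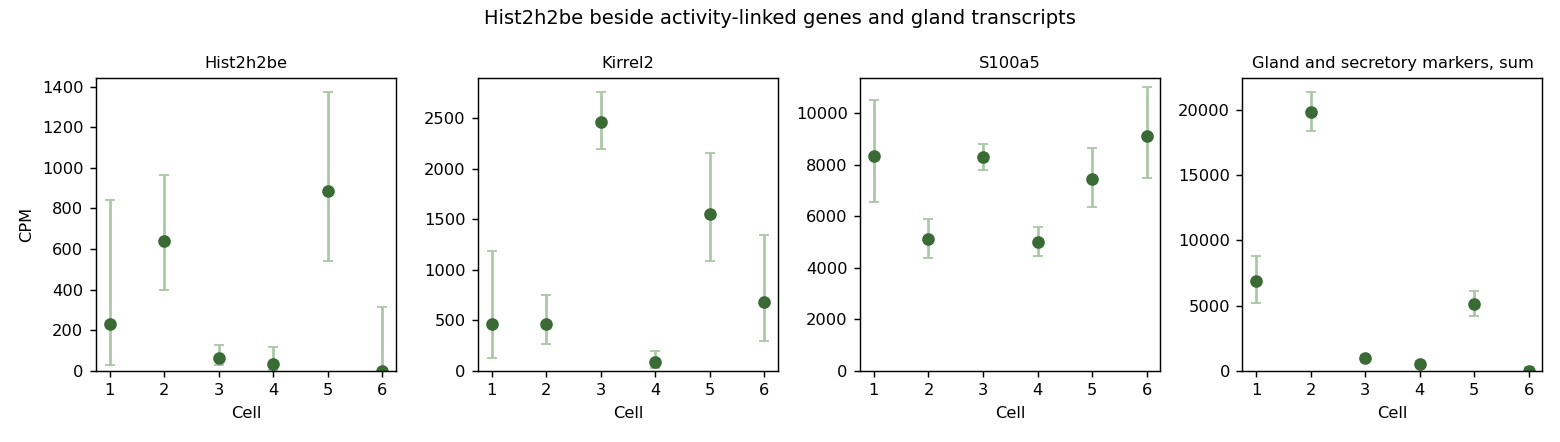
CPM (y axis, linear, separate scales) in cells 1 to 6 (x axis) for Hist2h2be, Kirrel2, S100a5 and the sum of 6 gland and secretory markers. Points are single cells and bars exact 95% Poisson intervals. Cells 1, 2 and 5 are the 3 highest for both Hist2h2be and the gland sum, while Kirrel2 peaks in cell 3 at 2464 CPM.

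Histone H3.3, the replacement H3 that marks transcribed genes and regulatory regions, had the most counts of the group, most of them from H3f3b. The H3f3a and H3f3b genes encode the same protein. H3f3b (chromosome 11, minus strand, 116021912 to 116027962) had 3, 24, 67, 73, 34 and 15 counts, or 348, 696, 547, 1199, 1509 and 1279 CPM in cells 1 to 6. Its interval in cell 3 (424 to 694) lay under those of cells 4 (940 to 1507), 5 (1045 to 2109) and 6 (716 to 2110). The ratio of cell 5 to cell 3 was 2.76 (1.77 to 4.23) and that of cell 4 to cell 3 was 2.19 (1.55 to 3.10).

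H3f3a (chromosome 1, minus strand, 180800832 to 180813943) had 1, 5, 24, 14, 1 and 0 counts, at most 230 CPM, in cell 4. H3f3b took 216 of the 261 counts of the pair (82.8%, 77.6% to 87.1%). Its share was 73.6% (63.3% to 82.3%) for cell 3 and 97.1% (85.1% to 99.9%) in cell 5, intervals that do not overlap, and 83.9% (74.5% to 90.9%) in cell 4. With the rows that share sequence with H3f3a added to it, the share was 67 of 119 counts for cell 3 (56.3%, 46.9% to 65.4%) and 34 of 43 for cell 5 (79.1%, 64.0% to 90.0%), and these intervals overlap. Only 1 H3f3a count fell in cell 5, against 34 of H3f3b.

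Of the H2A variants, macroH2A1 and H2A.Z were found in every cell. H2afy (chromosome 13, minus strand, 56073619 to 56136361), which encodes the large macro-domain variant macroH2A1, had 3, 15, 16, 23, 9 and 5 counts. Its level was 348, 435, 378, 400 and 426 CPM in cells 1, 2, 4, 5 and 6 and 131 CPM (74.6 to 212) in cell 3. Cell 2 was 3.33 (1.53 to 7.20) and cell 4 2.89 (1.46 to 5.86) times cell 3. H2afz (chromosome 3, plus strand, 137864487 to 137866922), the gene of H2A.Z at promoters, ran from 171 CPM (2 counts) in cell 6 to 348 CPM (3 counts) in cell 1. Cells 2 to 5 had 203, 269, 246 and 178 CPM of H2afz. Its intervals overlapped between all cells, but this does not show equal levels. The ratio of cell 1 to cell 6 was 2.04 (0.234 to 24.4).

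H2afv, the other H2A.Z gene (chromosome 11, minus strand, 6427229 to 6444443), is listed at 0 in all 6 cells. A count of 0 of 260789 has an upper limit of 14.1 CPM pooled (11.5 CPM if set to 3 counts). In cell 3 the upper limit is 30.1 CPM (24.5 CPM if set to 3 counts). H2afz had 64 counts (245 CPM pooled, 189 to 313). H2afz thus had 64 of 64 counts of the pair (100%, 94.4% to 100%). Whether the annotation used for counting covered the 3' end of H2afv is not given, so the 0, these limits and the share hold for the row as deposited.

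The remaining variants were near the limit of detection. H2afx (chromosome 9, plus strand, 44334694 to 44336077), which encodes the H2A.X that is phosphorylated at DNA breaks, had 1 count in cell 3 and 2 in cell 4. H2afj (chromosome 6, plus strand, 136808244 to 136810074) had 2, 1 and 2 counts in cells 2, 3 and 4. H1f0 (chromosome 15, plus strand, 79028450 to 79030504), the linker histone H1.0 of differentiated cells, had 2 counts in cell 2 and 5 in cell 3. Pooled over all cells these are 11.5 CPM (2.37 to 33.6), 19.2 CPM (6.23 to 44.7) and 26.8 CPM (10.8 to 55.3). Zeros in the shallow cells 1 and 6 allow up to 428 and 315 CPM, so lower levels were not detectable there.

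In median CPM over cells the order was H3f3b (947 CPM), H2afy (389), H2afz (225), Hist1h2bc (160), Hist2h2be (149) and H3f3a (131), with H2afj at 4.08 CPM and H2afv, H2afx and H1f0 at 0. Per kilobase of merged exon the median level of H3f3b was 318 CPM and again the highest, followed by Hist1h2bc (138), H2afz (126), H2afy (57.1), Hist2h2be (56.8) and H3f3a (37.3). A 3' count does not grow with transcript length, so both orders are given. The middle of the order is not firm: the pooled intervals of H2afy (213 to 343 CPM), H2afz (189 to 313 CPM), Hist2h2be (156 to 270 CPM), Hist1h2bc (132 to 240 CPM) and H3f3a (126 to 231 CPM) overlap.

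The spread of the listed genes can be read against all genes. A mean of at least 100 CPM was reached by 6 of the 10, and 3 of these 6 (Hist2h2be, H2afy and H3f3b) had intervals in the highest and the lowest cell that did not overlap. Among all 1919 genes of that level 27.3% did so, against 6.2% of the 9760 genes averaging 10 CPM or more and 3.67% of the 16483 genes with at least 1 count. None of the 4 listed genes under 100 CPM did. A count in every cell was found for 3 of the 6 (H2afz, H2afy and H3f3b), against 39.7% of the 1919 genes. Because the genes were chosen with these values known, nothing is read from either number. The 3 calls fell to 1 when every cell was thinned to 8613 counts, and to 1 with 99% intervals.

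Genes that handle histones were found at low levels. Of 26 histone chaperones and exchange factors, 25 had a count in at least 1 cell, Set alone in every cell, with a summed median of 1356 CPM (597 to 2032). The 4 with the highest medians were Atrx (169 CPM), which deposits H3.3 at heterochromatin, Set (115 CPM), the H3.3 chaperone subunit Ubn2 (104 CPM) and Npm1 (81.8 CPM). Nap1l5, named after its values were seen, had 51 counts in cell 3 (416 CPM) and 0 in the other 5 cells. Hira and Daxx, also named after their values were seen, had 8 counts each over all cells. Other replacement histones were sparse, with 4 of 11 found: H1fx had 9 counts, the centromeric Cenpa 7, H3f3c 2 and H2afy2 1.

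Chromatin proteins of the HMG family were all found (9 of 9), with a summed median of 896 CPM, and Hmgn3, a nucleosome-binding protein, led with 128 counts (median 423 CPM). Hmgb1, Hmgn2 and Hmgn1 followed at 142, 140 and 125 CPM. Of 11 genes that process the 3' ends of histone mRNAs, 7 were found, with a summed median of 392 CPM. The stem-loop binding protein Slbp had 17 counts in cell 3, 7 in cell 4 and 6 in cell 6 (139, 115 and 512 CPM), 1 in cell 2 and 0 in cells 1 and 5. Cpsf2, Sympk and Cpsf3 had 13, 24 and 8 counts in all.

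Among the 5 genes whose pattern lay closest to Hist2h2be, by Pearson's r of log2(CPM + 10) over the 6 cells, were Uqcrh (0.93), Gm5514 (0.92), Scn9a (0.91) and Cox6a1 (0.90), among 762 genes counted in every cell at a mean of at least 100 CPM. Uqcrh and Cox6a1 encode respiratory chain subunits and Scn9a a sodium channel, and Gm5514 is annotated as a pseudogene. Scn9a had 348, 522, 310, 361, 755 and 85.3 CPM in cells 1 to 6. Each of these 4 was highest in cell 2 or 5, and the points share library depth and the 0 of Hist2h2be in cell 6. The choice of these genes is not stable: with a pseudocount of 1 CPM 3 of the 5 were kept, with Spearman's rho 2, and with a pseudocount of 50 CPM 0.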

How the data were processed

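The authors deposited 1 table of whole-number counts, with a row per gene symbol and a column for each of 6 neurons. Per the labels, CEL-Seq2 libraries with molecular identifiers were made, and the mate without the barcode was aligned. CASAVA, Bowtie2 2.3.4, HTSeq and mm10 are named, without roles, in the submitters' processing notes. Not given in the sources used here were the annotation, strand setting, treatment of reads with several alignments and collapsing of identifiers, so a count may be a molecule or a read, and intervals cover counting error only.

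All 55341 symbols matched GENCODE M21 (GRCm38), used for positions, exons and transcripts. CPM was scaled to the total over all genes. Poisson, Clopper-Pearson and ratio (conditional binomial) intervals were exact at 95%, with SciPy 1.17.1. A cell at 0 was set to 3 counts in ratios. With 1 group of single cells no test was made. TMM sizes came from edgeR 4.0.16 and size factors from DESeq2 1.42.0, as alternatives for scaling only. The interval comparison was tried on simulated counts with Poisson error alone. This cannot show how it behaves where reads are repeated or counted at several genes.

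The members, lists and rules were chosen with earlier results of these data known. Named are all members, the 4 genes of highest median CPM per list, the 5 canonical rows with most counts, the 5 genes most like Hist2h2be (1 of them is not reported here) and each cell's leading receptor. Alternatives were other scalings, thinning to the smallest total (20 draws), a floor of 1 count, 99% intervals, other filters and pools, and each cell left out. Rows sharing sequence with H3f3a and cells under 20000 counts were treated in alternatives added after the data were seen.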

Additional observations from a re-analysis of the deposited data

Results flagged for a closer look

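Of 16 sets of 6 values checked against Dixon's 95% limit, 2 had a cell far from the others. The limit assumes independent values with a normal spread. CPM values with many zeros and unequal depths do not meet this, so how many such sets chance gives is not known. H2afy was low in cell 3, with 131 CPM against 348 CPM in the next cell, and cell 3 was the deepest library, so the value rests on 16 counts. H2afx read 32.8 CPM in cell 4 against 8.16 CPM in cell 3, on 2 and 1 counts with 0 elsewhere, and the gap is within counting error.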

How the results depend on the processing

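Of 61 values computed under other settings for 6 results, 59 stayed within the spread between cells, the interval or 1.5 times the count. The 2 that moved were the number of listed genes without overlapping intervals, 3 as reported, which was 1 with every cell thinned to the smallest total and 1 with 99% intervals; fewer counts or wider intervals allow fewer calls. With the mitochondrial genes left out of the totals it was 2. The 59 values are no measure of robustness, because some settings could not move their result. The filters of mean CPM do not enter the number of listed genes, and the H2afz share is 100% wherever H2afv is 0. With a floor of 1 count, cell 4 stayed the lowest for Hist2h2be. The spread allowed for the Hist2h2be median was also wide, with a standard deviation of 369 CPM. The order of cells in Hist2h2be, with cell 5 first and cell 2 second, was the same under all 4 scalings, although TMM shifted single cells by -0.65 to 0.54 log2 units. Its ratio of the highest to the lowest cell with a count was 22.1 to 28.0 over these scalings, 7 after thinning, 13.6 without cell 4 (cell 5 to cell 3) and 19.4 without cell 5 (cell 2 to cell 4). Leaving out each cell in turn, the Hist2h2be median, 149 CPM with all cells, ran from 65.3 CPM (without cell 1, 2 or 5) to 232 CPM (without cell 3, 4 or 6), its median H2B share from 42.6% to 69.0%, the H3f3b share from 82.8% to 83.9%, and the number of listed genes without overlapping intervals from 2 (without cell 2, 3 or 5) to 3. Without cells under 20000 counts the Hist2h2be median was 352 CPM and its median share 45.0%; the medians of so uneven a gene depend on which cells are counted, so values per cell are the firmer description. Adding rows that share sequence with H3f3a lowered the median H3f3b share from 83.3% to 78.2%, and its intervals in cells 3 and 5 then overlapped. With no row named as a pseudogene of H2afz or H2afv, that alternative was not run. No paired analysis was possible because there is 1 group. Depth limits cells 1 and 6 most.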
